A study of Mus musculus with 16 samples.

Results

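Ubiquitin-conjugating enzymes, the E2 enzymes, were followed through the last steps of red cell formation in mouse bone marrow. The 30 genes described here carry a Ube2 symbol other than Ube2c, are not named as pseudogenes, and had a total of 10 or more counts over the 16 libraries. They were chosen by name and by this count minimum, out of 39 matching names and 46078 genes listed in each count file, of which 13318 reached the same minimum. The 9 matching names below it were Ube2cbp with 9 counts, Ube2nl with 2, and Ube2d4, Ube2dnl1, Ube2dnl2, Ube2e2, Ube2ql1, Ube2u and Ube2uos with 0.

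Ubiquitin is passed from an activating enzyme (E1) to the E2, and from the E2 to a protein that a ligase (E3) has bound. The E2 largely decides which modifier is carried, since NEDD8 and ISG15 travel with E2s of their own, and often which kind of ubiquitin chain is built. In maturing erythroblasts, ubiquitin-dependent breakdown is known to clear ribosomes and other proteins as the cell becomes filled with haemoglobin and loses its nucleus.

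Polychromatic erythroblasts (Poly-E) and the later orthochromatic erythroblasts (Ortho-E) were sorted by CD44 and Ter119 from steady-state bone marrow, and their RNA was sequenced. Ypel4+/+ (wild-type) and homozygous mutant Ypel4-/- mice each gave 4 libraries per population, so that 4 groups of 4 were compared. All samples, those of the controls included, carried the same strain label, with C57BL/6N-A<tm1Brd> as the background and Ypel4<tm1a(EUCOMM)Wtsi>, of the line WtsiIeg, as the allele. The model is a conventional knockout with a trap allele, so that the gene is disrupted throughout the mouse and not in erythroid cells alone. Age and sex were not given in the labels, and nothing beyond the replicate numbers says that libraries of a group came from separate mice, so that the p-values measure the spread between these libraries.

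Libraries held between 2670173 and 12451234 counted read pairs, called reads here. The targeted gene separated the genotypes in both populations: Ypel4 was at 490 to 716 CPM (counts scaled to a common library size with TMM) in the 4 Ypel4+/+ Poly-E libraries against 9.90 to 23.6 in Ypel4-/- Poly-E, and the Ortho-E ranges were 4430 to 5441 and 175 to 224 CPM. The 10 erythroid markers summed to between 58846 and 70902 CPM in the Poly-E libraries and between 225590 and 307860 in Ortho-E. Under TMM, 9 of them were higher in Ortho-E and 1, Klf1, was lower in both genotypes. Scaled by library totals instead, 6 were higher, 2 were lower and 2 were not called in each genotype. The 10 myeloid markers summed to 2.03 to 5.27 CPM in Poly-E and 4.02 to 20.5 in Ortho-E, the 8 macrophage markers to 2.32 to 4.46 and 4.27 to 10.01, the 6 B and T cell markers to 22.5 to 47.8 and 33.0 to 71.3, and the 5 megakaryocyte markers to 26.7 to 35.6 and 89.7 to 112. Cd3e, Marco and Gp1bb were at 0 in every library. These low non-erythroid sums moved with the population on the TMM scale. Under library totals, 1 of 5 tested myeloid markers was higher in Ypel4+/+ and 0 of 6 in Ypel4-/-. Macrophage markers were higher for 0 of 5 and 1 of 7, and lower for 0 and 1. B and T cell markers were higher for 0 of 4 in each genotype, and lower for 3 and 1. Of the megakaryocyte markers, 1 was higher and 1 lower in each. Their part in the differences below was not tested. In sorted bulk cells, fewer cells of a type and less RNA per cell cannot be told apart.

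Sequence upstream of 5 of the genes is shown first, because these genes span the pattern described below: Ube2h, Ube2b, Ube2l6 and Ube2f were higher in Ortho-E, and Ube2t was lower. Each line holds the 250 bases before a RefSeq transcription start (GRCm38.p6), 5′ to 3′ on the strand of the gene. Capitals mark matches, on either strand, to AGATAA or TGATAA (letters bound by GATA factors), CCNCNCCC (CACCC-type boxes bound by Klf factors), CACGTG (an E-box), CCAAT (bound by NF-Y) and GCGGGAA (bound by E2F factors). Overlapping matches were each counted.
Ube2h, chr6:30304540-30304789, - strand: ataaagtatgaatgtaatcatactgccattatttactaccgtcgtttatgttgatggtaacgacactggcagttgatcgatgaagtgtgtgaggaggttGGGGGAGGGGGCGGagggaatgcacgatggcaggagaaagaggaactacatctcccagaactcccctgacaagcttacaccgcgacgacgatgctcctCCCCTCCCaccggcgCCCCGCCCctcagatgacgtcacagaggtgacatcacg
Ube2h, internal start, chr6:30243804-30244053, - strand: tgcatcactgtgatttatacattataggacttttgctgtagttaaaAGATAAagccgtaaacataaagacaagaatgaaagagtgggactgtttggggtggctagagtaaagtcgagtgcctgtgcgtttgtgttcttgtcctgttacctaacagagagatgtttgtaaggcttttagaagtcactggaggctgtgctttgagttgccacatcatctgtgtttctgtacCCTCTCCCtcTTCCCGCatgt
Ube2b, chr11:52000787-52001036, - strand: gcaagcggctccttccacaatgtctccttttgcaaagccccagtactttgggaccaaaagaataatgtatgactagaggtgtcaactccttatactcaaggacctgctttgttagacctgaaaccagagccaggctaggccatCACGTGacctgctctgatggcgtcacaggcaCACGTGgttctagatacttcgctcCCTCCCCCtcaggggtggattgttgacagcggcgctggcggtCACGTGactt
Ube2l6, chr2:84798578-84798827, + strand: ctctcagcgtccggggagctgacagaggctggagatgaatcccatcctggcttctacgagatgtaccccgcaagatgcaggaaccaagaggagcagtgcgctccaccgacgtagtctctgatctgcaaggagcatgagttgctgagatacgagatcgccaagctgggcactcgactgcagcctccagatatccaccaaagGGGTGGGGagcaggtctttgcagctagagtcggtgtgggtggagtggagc
Ube2f, chr1:91250054-91250303, + strand: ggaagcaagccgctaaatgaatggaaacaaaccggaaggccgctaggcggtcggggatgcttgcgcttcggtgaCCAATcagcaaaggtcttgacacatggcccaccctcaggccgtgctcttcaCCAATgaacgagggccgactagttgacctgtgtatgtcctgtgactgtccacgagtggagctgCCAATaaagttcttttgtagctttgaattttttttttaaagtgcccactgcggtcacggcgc
Ube2t, chr1:134962315-134962564, + strand: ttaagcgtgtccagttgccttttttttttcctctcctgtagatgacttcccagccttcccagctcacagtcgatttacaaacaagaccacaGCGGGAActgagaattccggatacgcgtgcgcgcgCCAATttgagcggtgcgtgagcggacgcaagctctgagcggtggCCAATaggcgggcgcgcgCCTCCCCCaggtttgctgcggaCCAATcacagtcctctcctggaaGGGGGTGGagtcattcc

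The Ube2b window shown held CACGTG 3 times, a number that 0.0609% of all 32851 RefSeq windows of this length reached, whereas 6.02% held it at least once. The window of a second Ube2b start, 271 bases inside the gene, held CACGTG 0 times and CCNCNCCC 4 times. The window of Ube2q1, not called in the main tests, held CACGTG 2 times. The windows shown of Ube2f and Ube2t each held CCAAT 3 times, as 2.79% of all windows did, although Ube2f rose and Ube2t fell. The window of a second Ube2f start, 262 bases inside the gene, held CCAAT 0 times. Ube2t also held GCGGGAA, found in 3.82% of windows. So did the internal Ube2h window and windows of Ube2a, Ube2j1, Ube2q1 and Ube2v1. The first Ube2h window held CCNCNCCC at 5 positions, 3 of them overlapping, and the Ube2l6 window held it once. The second Ube2h start lies 60736 bases inside the gene, and its window held AGATAA once, which 9.99% of all windows held at least once. Counts per gene do not tell the starts apart. Windows nearest to the gene start were at hand for 23 of the 30 genes, but not, among others, for Ube2d2a, Ube2e3, Ube2g2, Ube2o, Ube2v2 and Ube2w. CCNCNCCC was found in 6 of 9 windows of genes higher in Ortho-E in both genotypes and in 7 of 7 of those lower in both, beside 45.9% of all windows. CCAAT was found in 3 of 9 and 1 of 7, beside 33.8%, and AGATAA or TGATAA in 0 of 9 and 0 of 7, beside 16.6%. GCGGGAA was found in 1 of 9 (Ube2v1) and 1 of 7 (Ube2t), beside 3.82%, and CACGTG in 1 of 9 and 0 of 7, beside 6.02%. Ube2d2b, a gene with few reads, was among the 9 and held CCAAT. A match to these letters is a description and not a binding site.

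Population differences divided the E2 genes into risers and fallers. In Ypel4+/+ cells, 10 of the 29 genes tested were higher in Ortho-E than in Poly-E and 11 were lower (edgeR quasi-likelihood test, adjusted p of 0.05 or less, TMM scaling, which sets the bulk of genes about equal). Over all 11747 genes tested in this comparison, 26.4% were higher and 32.1% were lower, 58.5% in all. In Ypel4-/- cells, which share no library with the Ypel4+/+ comparison, 11 of 29 were higher and 11 lower, beside 29.5% and 31.5% of all 11973 genes, 61% in all. At an unadjusted p under 0.05 there were 23 E2 genes in Ypel4+/+ (62% of all genes) and 22 in Ypel4-/- (64.3%). The counts of called E2 genes lay near or somewhat above the background. The median log2 fold change of the E2 genes was -0.13 in Ypel4+/+ and -0.20 in Ypel4-/-, beside -0.19 and -0.09 for all genes tested. The groups did not overlap for 20 E2 genes in Ypel4+/+, beside 53.2% of all genes, and for 21 in Ypel4-/-, beside 55.5%.

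The same 10 genes were higher in both genotypes: Ube2h, Ube2b, Ube2f, Ube2o, Ube2r2, Ube2l6, Ube2d2b, Ube2v1, Ube2m and Ube2d3. Among them, Ube2d2b passed the count minimum only with its Ortho-E reads. A further 10 were lower in both, among them Ube2q2, Ube2t, Ube2g1, Ube2z, Ube2n, Ube2g2, Ube2s, Ube2d2a and Ube2k. Ube2e3 passed the test as higher in Ypel4-/- alone, Ube2j2 as lower in Ypel4-/- alone and Ube2j1 as lower in Ypel4+/+ alone, and the interaction of genotype and population was called for none of them. With the replicate number as a block, Ube2e3 (0.28, SE 0.09, edgeR adjusted p = 0.00492) and Ube2j2 (-0.40, SE 0.13, adjusted p = 0.00443) were called in Ypel4+/+ too, as was Ube2q1 as lower (-0.87, SE 0.37, adjusted p = 0.0339). Ube2a, Ube2d1, Ube2l3, Ube2q1, Ube2v2 and Ube2w passed in neither genotype without the block, and Ube2e1, with 11 counts in all, was too low to be tested. All 29 tested genes had the same sign in both genotypes.

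The size of these differences depends on the scale. Scaling by library totals moved the median log2 fold change of all genes by -1.26 in Ypel4+/+ and by -1.39 in Ypel4-/-, and the split of called E2 genes became 7 higher and 19 lower in Ypel4+/+ (background 10.4% and 60.3%) and 8 higher and 19 lower in Ypel4-/- (background 11.2% and 60.9%). On that scale Ube2h, Ube2b, Ube2f, Ube2o, Ube2r2, Ube2l6 and Ube2v1 were still higher in both genotypes, Ube2d2b was called in Ypel4-/- alone, Ube2m was not called in either (log2 fold changes 0.03 and -0.10), and Ube2d3 turned from higher to lower (-0.49 in both). The other 18 lower genes on that scale were those called lower under TMM in either genotype, with Ube2a, Ube2e3, Ube2l3, Ube2q1, Ube2v2 and Ube2w. Rises past 4-fold were counted at a threshold chosen after the values had been seen, so the shares are a description and not a test. In Ypel4+/+, 7 of 29 E2 genes rose this far against 10.7% of all genes under TMM, and 4 of 29 against 1.66% under library totals. In Ypel4-/- these were 8 of 29 against 12.7%, and 5 of 29 against 2.29%. Ube2d2b was among the 7, the 8 and the 5, on 5 Poly-E and 9 Ortho-E reads in Ypel4+/+ and 4 and 20 in Ypel4-/-. Its Poly-E reads alone did not reach the count minimum of 10 in either genotype or over the 16 libraries. It is thus counted here only because of its Ortho-E reads, and its rise follows in part from that choice. The genes past 4-fold on both scales in both genotypes were Ube2b, Ube2f, Ube2h and Ube2o. Falls of 4-fold or more under TMM were seen for 2 of 29 in each genotype, Ube2q2 and Ube2t, beside 7.66% and 6.79% of all genes, and under library totals for 9 of 29 in Ypel4+/+ and 11 of 29 in Ypel4-/-, beside 36.4% and 36.9%.

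**Figure D1:**
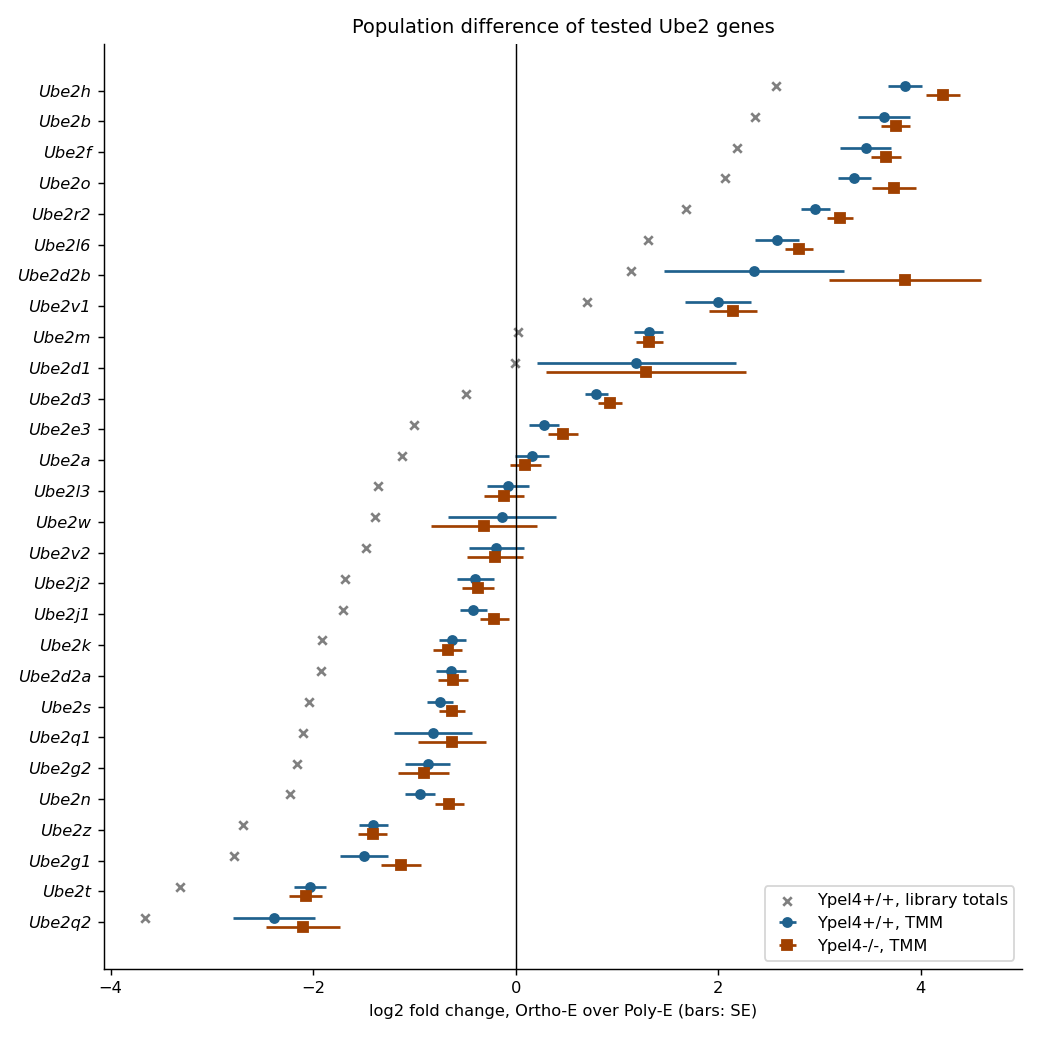
Log2 fold change of Ortho-E over Poly-E (x axis) for tested Ube2 genes, with circles for Ypel4+/+ and squares for Ypel4-/- under TMM (bars are SE) and grey crosses for Ypel4+/+ under library totals. The order runs from Ube2h at 3.84 to Ube2q2 at -2.38, and the crosses lie about 1.26 to the left, which puts Ube2d3 below 0.

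Most E2 counts came from few genes. Ube2h, Ube2b, Ube2f, Ube2o, Ube2r2 and Ube2l6, the 6 genes with the largest rises in Ypel4+/+, together made up 58.8% to 72.5% of the counts of the 30 genes (Ube2c not among them) in the Ypel4+/+ Poly-E libraries and 94.4% to 95.0% in Ypel4+/+ Ortho-E, and the ranges in Ypel4-/- were 57.7% to 64.8% and 94.4% to 94.9%. These 6 were picked for their rise in Ypel4+/+, so that the larger share in Ypel4+/+ Ortho-E follows from the choice. The 30 genes took 0.465% to 0.583% of all counted reads in Ypel4+/+ Poly-E and 1.22% to 1.31% in Ypel4+/+ Ortho-E. Per length, as FPKM, the TMM-scaled CPM divided by the exon length in kilobases, Ube2l6 was the highest of the 30 in Ypel4+/+ Ortho-E at 2526 ± 549 (SD, n = 4), followed by Ube2o at 1180.4 ± 219, Ube2b at 992 ± 144, Ube2h at 725 ± 93.7 and Ube2r2 at 369 ± 20.4. The ranges of Ube2o and Ube2b overlapped, as did those of Ube2b and Ube2h, whereas Ube2l6 lay above and Ube2r2 below them. In Ypel4+/+ Poly-E, Ube2l6 was again first at 432 ± 131, and Ube2s was second at 251 ± 26.0 without overlapping its neighbours, ahead of Ube2o at 119 ± 22.7. Ube2s was sixth in Ypel4+/+ Ortho-E at 146 ± 19.6. The exon length behind these values runs over every annotated transcript, up to 24499 bases for Ube2d3, so that FPKM of such genes is low for its counts.

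Ube2h had the largest rise in both genotypes, and Ube2o had the most reads of the 30 genes. Ube2h (chr6:30211289-30304539, minus strand, GRCm38 as in the count files) encodes the E2 that works with the CTLH ligase, and Ube2o (chr11:116537740-116581447, minus strand) encodes a large E2 that also acts as its own ligase and is known for removing ribosomal proteins in late erythroid cells. Ube2h was at 337, 212, 240.1 and 201 CPM in the 4 Ypel4+/+ Poly-E libraries and at 3196, 3050.5, 3572 and 4053 in Ypel4+/+ Ortho-E. In Ypel4-/- it was at 159.9, 209.6, 288 and 206 CPM in Poly-E, against 2693, 3852, 3774 and 4036 in Ortho-E. Every Ortho-E library lay above every Poly-E library, and the log2 fold change was 3.84 (SE 0.16, edgeR adjusted p = 2.10e-15) in Ypel4+/+ and 4.22 (SE 0.17, adjusted p = 2.73e-16) in Ypel4-/-. Ube2o was at 742, 483, 713 and 582 CPM in Ypel4+/+ Poly-E and at 5485, 5027, 7098 and 7356 in Ypel4+/+ Ortho-E. In Ypel4-/- it was at 391, 523, 726 and 610.3 CPM in Poly-E, against 4524, 7046, 7337 and 7905 in Ortho-E. The populations did not overlap, with log2 fold changes of 3.34 (SE 0.16, edgeR adjusted p = 1.26e-14) and 3.74 (SE 0.22, adjusted p = 8.01e-09).

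The partners of Ube2h did not all move with it. Of 11 CTLH subunit genes, 5 were higher in Ortho-E and 4 were lower in each genotype under TMM (median log2 fold change -0.15 in Ypel4+/+), and 4 were higher and 7 lower under library totals in each. For this and the lists below, the TMM shares of all genes were 26.4% higher and 32.1% lower in Ypel4+/+, and 29.5% and 31.5% in Ypel4-/-. Under library totals they were 10.4% and 60.3%, and 11.2% and 60.9%. No list was tested against these shares. Wdr26, a substrate receptor of CTLH, rose most, by 2.75 (SE 0.14) in Ypel4+/+ and 3.01 (SE 0.12) in Ypel4-/- on the log2 scale. Gid4, another receptor, had the largest fall in Ypel4+/+, at -1.90 (SE 0.19), and was at -1.47 (SE 0.17) in Ypel4-/-. Named after their values were seen, Ranbp10 (2.34), Ypel5 (2.37) and Rmnd5a (1.84) rose in Ypel4+/+ and their counterparts Ranbp9 (-1.23) and Maea, a catalytic subunit (-1.58), fell, each with the same direction in Ypel4-/- and under library totals.

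Ube2l6 was the E2 gene with the highest level per length in all 4 groups, and it rose in Ortho-E. Ube2l6 (chr2:84798828-84810335, plus strand) encodes the main E2 of ISG15, and was at 1217, 897, 684 and 648 CPM in Ypel4+/+ Poly-E and at 6497, 5267, 4091 and 4314 in Ypel4+/+ Ortho-E. In Ypel4-/- it was at 734, 899, 615 and 557 CPM in Poly-E, against 5053, 4182, 3925 and 3932 in Ortho-E. The populations did not overlap, and the log2 fold change was 2.58 (SE 0.22, edgeR adjusted p = 2.90e-07) in Ypel4+/+ and 2.80 (SE 0.14, adjusted p = 3.66e-17) in Ypel4-/-. Uba7, the ISG15 E1, rose by 1.68 (SE 0.15) and 2.13 (SE 0.11), the largest rise among 9 E1 genes, of which 2 were higher and 3 lower in each genotype (1 higher and 8 lower under library totals). Isg15 itself, named after its values were seen, rose by 2.57 (SE 0.41) and 2.61 (SE 0.12), and under library totals all of Ube2l6, Uba7 and Isg15 were still higher in both genotypes.

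Among the E1 genes Sae1 had the largest fall (-2.35, SE 0.17 in Ypel4+/+), and Uba2, its partner subunit, fell by 1.93 (SE 0.15) on the log2 scale. Over the 18 genes of ubiquitin and ubiquitin-like modifiers, 8 were higher and 6 lower in Ypel4+/+ and 9 and 6 in Ypel4-/-, but 6 and 11 in each under library totals. Gabarapl1, a modifier of autophagy membranes, was highest (2.94, SE 0.14 in Ypel4+/+) and Sumo2 lowest (-2.18, SE 0.22). Of 11 SUMO ligase and protease genes, 2 were higher and 5 lower in each genotype under TMM and 0 were higher and 9 lower under library totals, with Senp1 (-2.26, SE 0.16) and Senp7 (1.17, SE 0.12, not called under library totals) at the ends in Ypel4+/+.

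Both NEDD8 E2s were higher in Ortho-E under TMM, but by different amounts. Ube2f (chr1:91250304-91290337, plus strand), which loads NEDD8 onto cullin 5 with Rnf7, was at 85.3, 53.2, 46.9 and 35.9 CPM in Ypel4+/+ Poly-E and at 705, 557, 501 and 596 in Ypel4+/+ Ortho-E. In Ypel4-/- its range was 34.1 to 64.2 CPM in Poly-E and 521 to 540.4 in Ortho-E. Its log2 fold change was 3.46 (SE 0.25, edgeR adjusted p = 3.28e-07) in Ypel4+/+ and 3.66 (SE 0.15, adjusted p = 9.14e-20) in Ypel4-/-, with no overlap between populations. Ube2m, which serves the other cullins with Rbx1, had log2 fold changes of 1.31 (SE 0.14) and 1.32 (SE 0.13) under TMM and was not called under library totals. Of 12 tested genes for cullins, Rbx1 and Rnf7 and NEDD8 ligases, 4 were higher and 4 lower in each genotype under TMM and 2 were higher and 8 lower under library totals, with Cul4a highest (2.23, SE 0.13 in Ypel4+/+) and Cul1 lowest (-1.99, SE 0.14). Rnf7, the partner of Ube2f, fell by 1.44 (SE 0.19) and 1.94 (SE 0.20).

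Ube2z (chr11:96047432-96065388, minus strand) takes ubiquitin from the second ubiquitin E1, Uba6. It was at 64.8, 68.7, 79.1 and 74.9 CPM in Ypel4+/+ Poly-E and at 24.9, 26.3, 23.0 and 31.3 in Ypel4+/+ Ortho-E. In Ypel4-/- it ranged from 69.0 to 77.3 CPM in Poly-E and from 20.2 to 31.1 in Ortho-E. It fell without overlap by 1.41 (SE 0.14, edgeR adjusted p = 2.19e-09 and 1.79e-10) on the log2 scale in both genotypes, whereas Uba6 was not called in either under TMM and was lower under library totals.

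**Figure D2:**
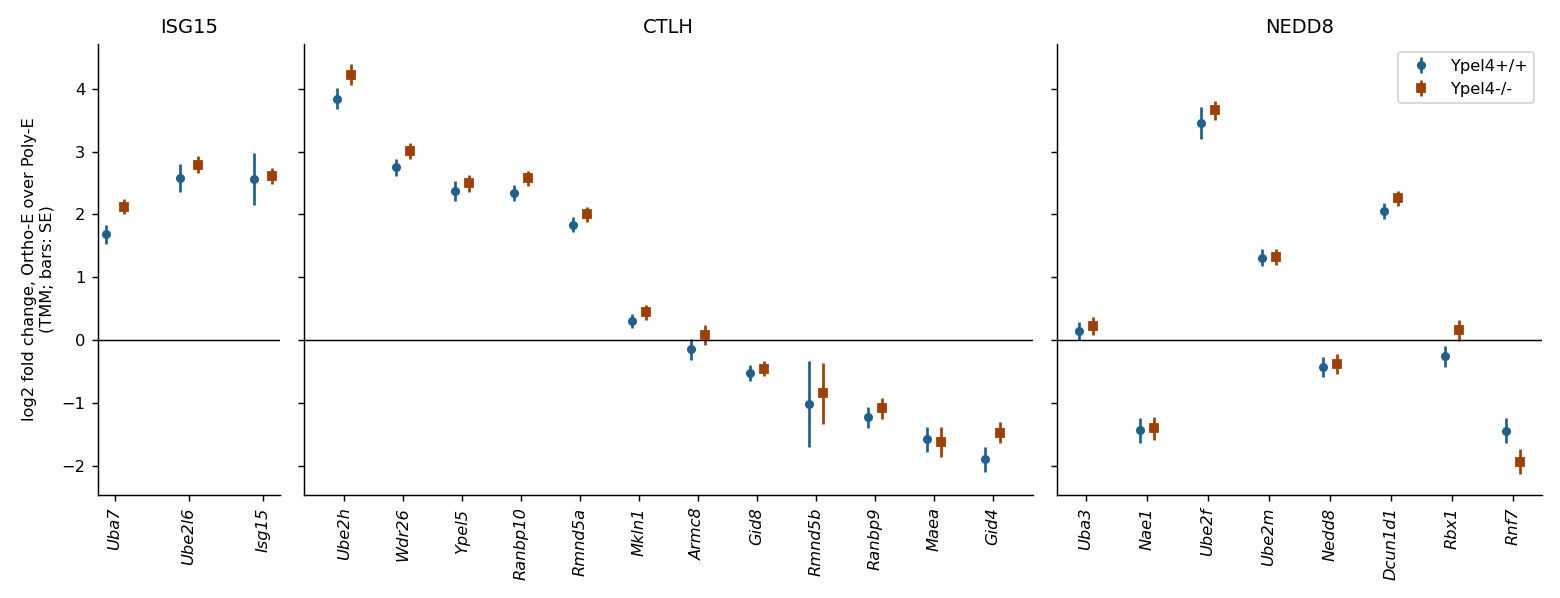
Log2 fold change of Ortho-E over Poly-E under TMM (y axis, bars are SE) for E2 genes beside their E1s, modifiers and ligase genes, in Ypel4+/+ (circles) and Ypel4-/- (squares). Uba7, Ube2l6 and Isg15 lie above 0, with Ube2l6 at 2.58 in Ypel4+/+, and the CTLH and NEDD8 panels hold genes on both sides.

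Ube2b and Ube2t, both known for work on chromatin and DNA repair, moved apart. Ube2b (chr11:51985497-52000762, minus strand) encodes an E2 of histone H2B and of the replication clamp PCNA, with Rnf20 and Rad18 as ligases. It was at 268, 173, 135 and 120.3 CPM in Ypel4+/+ Poly-E and at 2445, 2274, 1772 and 1947 in Ypel4+/+ Ortho-E. In Ypel4-/- it was at 124, 204, 171 and 117 CPM in Poly-E, against 1747, 1713, 2005 and 1846 in Ortho-E. The populations did not overlap, with log2 fold changes of 3.64 (SE 0.26, edgeR adjusted p = 2.88e-07) and 3.75 (SE 0.15, adjusted p = 3.85e-20). Ube2a, its near-identical relative, stayed between 19.0 and 31.0 CPM in the 16 libraries and was not called under TMM (0.16, SE 0.17 in Ypel4+/+).

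Ube2t (chr1:134962565-134974162, plus strand), the E2 of the Fanconi anaemia repair pathway, was at 64.7, 76.5, 81.9 and 74.9 CPM in Ypel4+/+ Poly-E and at 13.5, 17.1, 17.0 and 22.4 in Ypel4+/+ Ortho-E. In Ypel4-/- it ranged from 62.9 to 79.8 CPM in Poly-E and from 11.5 to 20.1 in Ortho-E. It fell without overlap, by 2.03 (SE 0.16, edgeR adjusted p = 1.36e-11) and 2.07 (SE 0.16, adjusted p = 2.43e-13) on the log2 scale. Of 12 chromatin and repair ligase genes, 2 were higher and 7 lower in Ypel4+/+ (median -0.80) and 3 were higher and 6 lower in Ypel4-/-. Under library totals 0 were higher and 11 lower in each, where 60.3% and 60.9% of all genes were lower. Fanci, a target of Ube2t, fell most (-2.41, SE 0.17 in Ypel4+/+) and Rnf20 rose most (1.34, SE 0.12), although Rnf20 was not called under library totals.

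Ube2s, which extends chains on targets of the anaphase-promoting complex, went from 184 to 237 CPM in Ypel4+/+ Poly-E to 101 to 139 in Ypel4+/+ Ortho-E and fell by 0.75 (SE 0.13) and 0.63 (SE 0.12) on the log2 scale. Of 16 genes of that complex and its activators, 4 were higher and 10 lower in each genotype under TMM, and 1 was higher and 15 lower under library totals. Anapc11 had the largest fall in Ypel4+/+ (-2.20, SE 0.27), and the activator Fzr1 the largest rise (2.30, SE 0.14), also on library totals. All 16 S-phase genes of the list were lower in Ortho-E in both genotypes, and of 16 genes of G2 and M phase 14 were lower in Ypel4+/+ and 13 in Ypel4-/-. The part of cell division in the falls of Ube2t and Ube2s was not tested.

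Builders of K48-linked chains, the kind that sends proteins to the proteasome, were grouped with E2s of the endoplasmic reticulum. Of these 6 genes, 1 rose and 4 fell in each genotype under TMM. The 4 included Ube2j1 in Ypel4+/+ and Ube2j2 in Ypel4-/-, so they were not the same genes in both. Over all genes, 26.4% rose and 32.1% fell in Ypel4+/+, and 29.5% and 31.5% in Ypel4-/-. With 6 genes, no trait of this class was tested. Ube2r2 (chr4:41135743-41193380, plus strand), an E2 of cullin 1 ligases, was at 266, 186, 193 and 171 CPM in Ypel4+/+ Poly-E and at 1618, 1465, 1482 and 1625 in Ypel4+/+ Ortho-E. In Ypel4-/- it ranged from 164 to 228 CPM in Poly-E and from 1471 to 1599 in Ortho-E. It rose without overlap by 2.96 (SE 0.14, edgeR adjusted p = 1.88e-15) and 3.21 (SE 0.13, adjusted p = 1.70e-20) on the log2 scale. Ube2g1 (chr11:72607283-72686481, plus strand), which lengthens chains on targets of cullin 4 ligases, was at 15.3, 18.2, 23.0 and 19.6 CPM in Ypel4+/+ Poly-E and at 3.80, 4.00, 8.33 and 8.63 in Ypel4+/+ Ortho-E. In Ypel4-/- it ranged from 17.4 to 21.0 CPM in Poly-E and from 5.40 to 11.0 in Ortho-E. It fell by 1.497 (SE 0.23, edgeR adjusted p = 3.51e-06) and 1.13 (SE 0.20, adjusted p = 8.11e-06), again without overlap. Ube2g2, which acts on misfolded proteins of the endoplasmic reticulum, fell by 0.87 (SE 0.22) and 0.91 (SE 0.25), and Ube2k by 0.62 (SE 0.14) and 0.67 (SE 0.14). Of 9 ligase genes of that pathway, 3 were higher in each genotype under TMM and 2 were lower in Ypel4+/+ and 3 in Ypel4-/-, while 1 was higher and 6 lower in each under library totals, from Derl2 (-2.13, SE 0.22 in Ypel4+/+) to Rnf139 (1.98, SE 0.12).

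Ube2n (chr10:95515162-95545658, plus strand), the E2 that builds K63-linked chains used in signalling and repair, was at 42.8, 44.7, 42.2 and 45.7 CPM in Ypel4+/+ Poly-E and at 17.7, 21.1, 27.0 and 22.4 in Ypel4+/+ Ortho-E. In Ypel4-/- it ranged from 43.2 to 45.4 CPM in Poly-E and from 23.4 to 27.9 in Ortho-E. It fell without overlap by 0.94 (SE 0.15, edgeR adjusted p = 5.71e-06) and 0.65 (SE 0.14, adjusted p = 0.000165) on the log2 scale. Its inactive partner Ube2v1 rose by 2.00 (SE 0.33) and 2.15 (SE 0.23), while the other partner, Ube2v2, was not called (-0.19, SE 0.27 in Ypel4+/+). For Ube2v1, 69.1% of the exonic bases are shared with other listed genes, among them Gm20431 on the same strand, and reads there are not assigned under the counting settings, so that its level is uncertain.

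Ube2q2 (chr9:55148854-55207529, plus strand) had the largest fall, from low levels. It was at 4.67, 9.10, 5.36 and 6.35 CPM in Ypel4+/+ Poly-E and at 1.69, 1.14, 1.67 and 0.467 in Ypel4+/+ Ortho-E, where the libraries held 2 to 5 reads each. In Ypel4-/- it ranged from 5.14 to 8.50 CPM in Poly-E and from 0.658 to 2.25 in Ortho-E. The log2 fold change was -2.38 (SE 0.41, edgeR adjusted p = 1.29e-05) and -2.10 (SE 0.37, adjusted p = 7.21e-06), without overlap. Ube2l3, the partner of RBR and HECT ligases, was not called, with a log2 fold change of -0.08 (SE 0.21) in Ypel4+/+, while 12 of 24 tested genes for such ligases were higher in Ypel4+/+ and 5 were lower, from Nedd4 (-2.51, SE 0.18) to Park2 (2.66, SE 0.57), and 5 were higher and 14 lower in Ypel4+/+ under library totals. Of the exonic bases of Ube2l3, 43.7% are shared with genes of the other strand.

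Among the broadly used E2s that start chains, Ube2d3 went from 185 to 208 CPM in Ypel4+/+ Poly-E to 303 to 366 in Ypel4+/+ Ortho-E (0.80, SE 0.12), and Ube2d2a fell (-0.64, SE 0.15), both under TMM. Ube2e3 had log2 fold changes of 0.28 (SE 0.15) and 0.47 (SE 0.15). Ube2d2b was called on 38 reads in all 16 libraries, 5 in Ypel4+/+ Poly-E and 9 in Ypel4+/+ Ortho-E, and it is a near-identical copy of Ube2d2a whose reads cannot always be told apart. Ube2d1 had 26 reads and Ube2w 117.

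**Figure D3:**
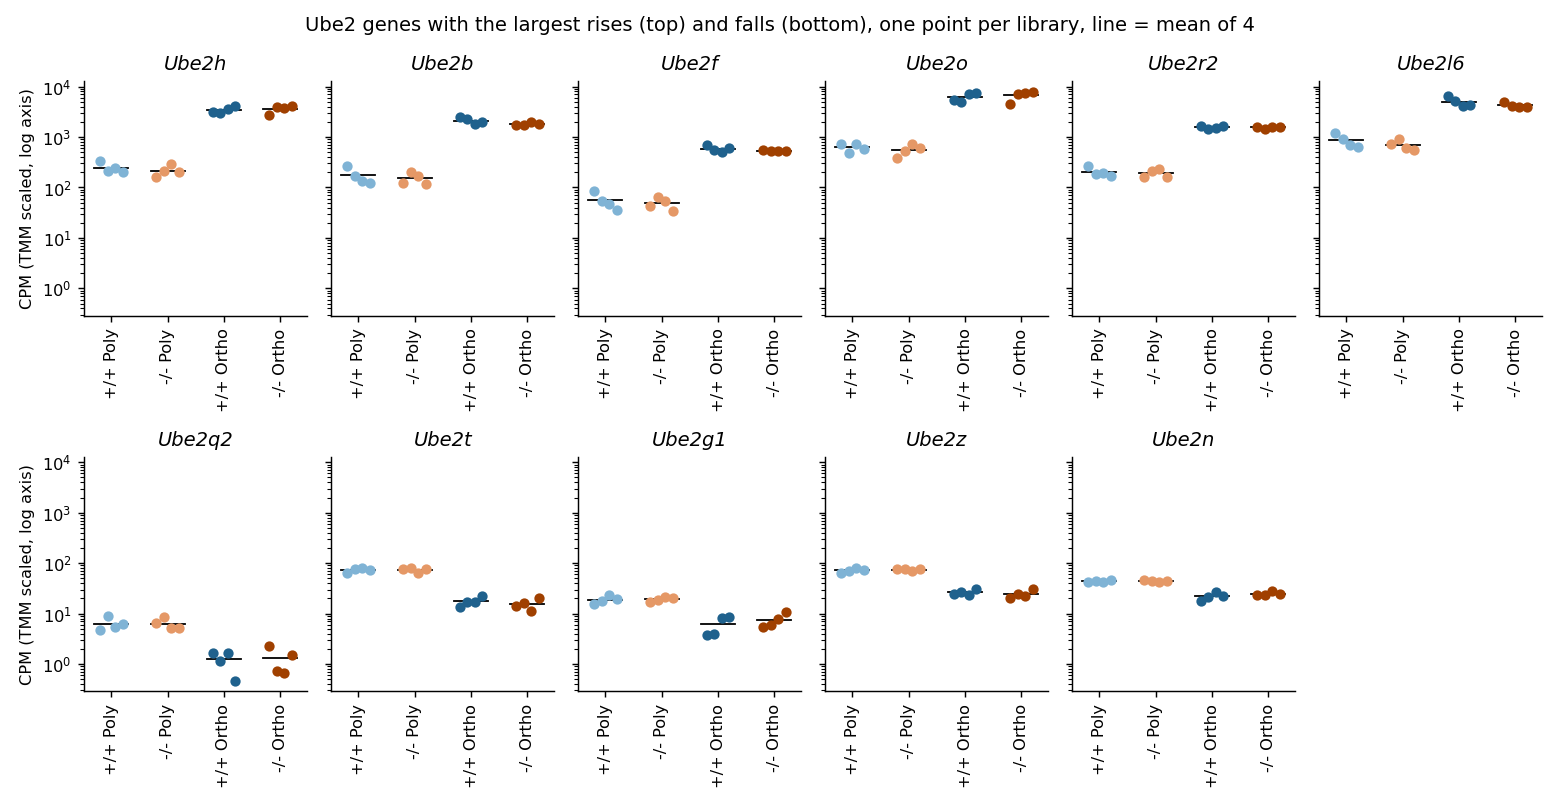
CPM per library (y axis, log scale) of the 6 Ube2 genes with the largest rises in Ypel4+/+ (top) and of genes among the largest falls (bottom), for Ypel4+/+ and Ypel4-/- Poly-E and Ortho-E. Each point is a library and each line the mean of 4, and in every panel the Poly-E and Ortho-E points of a genotype do not overlap, from Ube2o at 6242 CPM to Ube2q2 at 1.24 CPM on average in Ypel4+/+ Ortho-E.

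Ratios between related E2 genes within a library do not depend on the scaling. For 9 pairs of relatives, chosen after the values had been seen, the ratio of counts was compared between populations in each genotype with a two-sided exact permutation test of 4 against 4 libraries, whose smallest possible p is 0.0286, adjusted over the 18 tests. The same counts gave the fold changes above, so that these p-values are not separate support for them. The libraries were permuted as unpaired, although same-numbered libraries of both populations may come from a mouse in common. With the pairs picked on their values as well, these p-values describe the separation and do not test it. The ratio of Ube2b to Ube2a was 5.37 to 14.0 in Ypel4+/+ Poly-E and 72.4 to 92.2 in Ypel4+/+ Ortho-E, 11.4-fold higher by the mean of the log2 ratios (adjusted exact p = 0.0396). Ube2r2 was 3.48 to 9.35 times as abundant in reads as its relative Cdc34 in Ypel4+/+ Poly-E and 69.0 to 156 times in Ypel4+/+ Ortho-E. Cdc34 itself fell by 1.04 (SE 0.25) on the log2 scale, and 3 of the 6 tested E2 genes without a Ube2 symbol fell and 0 rose in each genotype (5 and 0 under library totals), with Birc6 falling most (-1.23, SE 0.13 in Ypel4+/+).

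The ratio of Ube2l6 to Ube2l3 went from 61.01 to 93.6 in Ypel4+/+ Poly-E to 381 to 654 in Ypel4+/+ Ortho-E, that of Ube2f to Ube2m from 0.943 to 2.59 to 5.13 to 8.002, that of Ube2d3 to Ube2d2a from 2.89 to 3.84 to 7.25 to 12.8, and that of Ube2v1 to Ube2v2 from 0.915 to 2.47 to 4.29 to 10.3. These 6 ratios were all higher in Ortho-E without overlap in both genotypes, each at the smallest exact p (adjusted p = 0.0396). Ube2q1 to Ube2q2 was higher in Ypel4-/- Ortho-E (2.76-fold, adjusted exact p = 0.0396). In Ypel4+/+ it was not called and the ranges overlapped (2.45-fold, log2 difference 1.29, SE 0.78, adjusted exact p = 0.206). This ratio rests on few reads, with 4 to 16 of Ube2q1 and 2 to 8 of Ube2q2 in the Ypel4-/- Ortho-E libraries. Ube2g1 to Ube2g2 (adjusted exact p = 0.110 in Ypel4+/+ and 0.605 in Ypel4-/-) and Ube2j1 to Ube2j2 (0.800 and 0.546) had overlapping ranges, with log2 differences of -0.77 (SE 0.32) and -0.06 (SE 0.21) in Ypel4+/+.

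**Figure D4:**
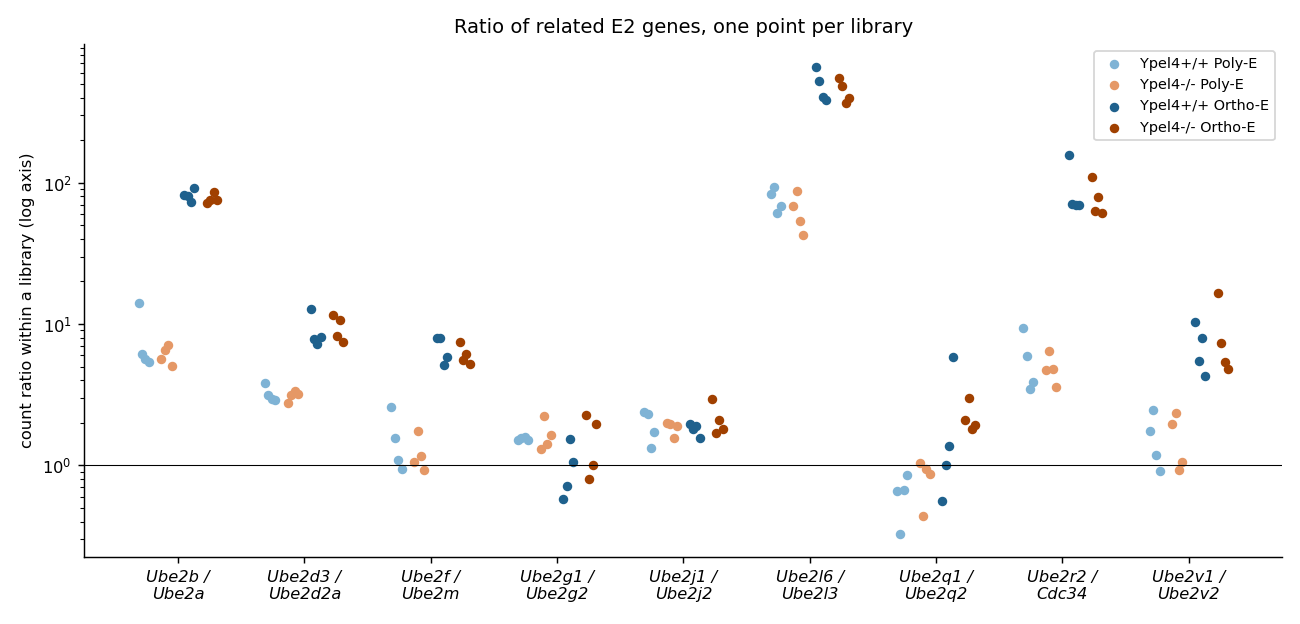
Ratio of read counts of related E2 genes within each library (y axis, log scale) for 9 pairs, each point a library of the 4 groups. For 6 pairs the Ortho-E points lie above all Poly-E points in both genotypes, as for Ube2b over Ube2a at 72.4 to 92.2 against 5.37 to 14.0 in Ypel4+/+, while the points of Ube2j1 over Ube2j2 overlap.

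Loss of Ypel4 left no E2 gene past the threshold. In Poly-E 0 of 28 tested E2 genes were called between Ypel4-/- and Ypel4+/+ (edgeR, 0.00807% of 12395 genes), and in Ortho-E 0 of 29 (0.0285% of 10521 genes, 0.0095% higher and 0.019% lower). No E2 gene had an unadjusted p under 0.05, where 2.19% and 3.68% of all genes did, and DESeq2 also called 0. None had groups that did not overlap, beside 2.09% and 2.35% of all genes. Ube2l6 lies 60.173 kb from the end of Ypel4 on chromosome 2. It had the lowest log2 fold change of the E2 genes in both populations, by little in Ortho-E (-0.2165 beside -0.2161 for the next lowest). Its genotype difference was -0.30 (SE 0.21, unadjusted p = 0.193, edgeR adjusted p = 1.00) in Poly-E and -0.22 (SE 0.18, unadjusted p = 0.272, edgeR adjusted p = 0.995) in Ortho-E, and its per-library values, given above, overlapped. Ube2d2b had the largest difference in Ortho-E (1.02, SE 0.65), on 9 reads in Ypel4+/+ and 20 in Ypel4-/-. The interaction of genotype and population was called for 0 of 30 E2 genes and for 0% of 13318 genes by edgeR, with 0 E2 genes and 2.73% of all genes at an unadjusted p under 0.05.

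**Figure D5:**
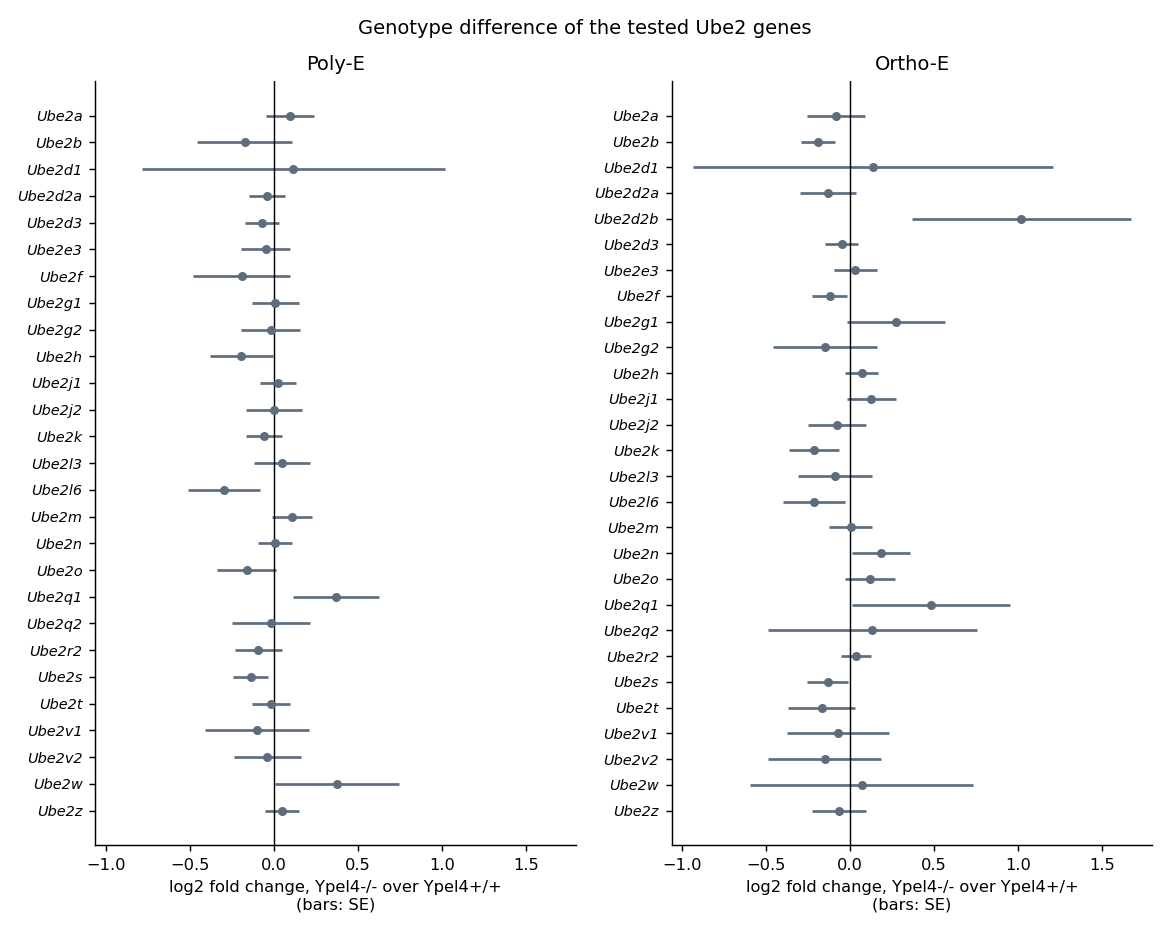
Log2 fold change of Ypel4-/- over Ypel4+/+ (x axis, bars are SE) for the Ube2 genes tested in Poly-E (left) and Ortho-E (right). No gene shown passed the test, and the widest bars belong to genes with few reads such as Ube2d2b, at 1.02 in Ortho-E.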

How the data were processed

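RNA was sequenced from 16 libraries, 4 for each combination of genotype and population, and grouped by the sample titles. The deposited values are raw read counts per gene, which the authors made with featureCounts 1.6.4 over exons, unstranded, on GRCm38 (mm10), after the nf-core RNA-seq pipeline. Reads that overlap several genes or map to several places are not counted under these settings, and the kit does not keep the strand, so that overlapping genes and near-identical copies are uncertain. Exon overlap was found for 6 of the 30 genes (Ube2d3, Ube2e1, Ube2g2, Ube2l3, Ube2v1 and Ube2w). The submitters name DESeq2 in their processing notes.

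For quasi-likelihood testing of the counts, edgeR 4.0.16 (R 4.3.3) was run with TMM scaling, robust dispersion, a minimum total of 10 counts over the libraries of each comparison, and Benjamini-Hochberg adjustment over all genes tested. SE is the log2 fold change divided by the square root of F. CPM and FPKM were computed from the counts with TMM factors over the 16 libraries. The test was checked on simulated data, where 87.0% of genes changed 2-fold were recovered in the Ypel4+/+ population comparison (11361 genes) and 88.0% in the Poly-E genotype comparison (12060 genes). In these, 25 and 12 unchanged genes were called. Only 200 genes, each with 200 or more counts, were changed, up and down alike. Genes with few reads and a shift of most genes were therefore not covered by this check. Exact permutation tests were run in SciPy 1.17.1 on log2 ratios of counts with 0.5 added. Alternatives included DESeq2 1.42.0, other scalings and filters, the replicate block and libraries left out.

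Values per library or their range are given for the 6 largest rises and 6 largest falls called in Ypel4+/+ with the same sign in Ypel4-/-. From each pathway list the fold changes of the called genes with the largest rise and fall are given, and other genes of the lists were named after their values were seen, except that 1 gene each of the E2s and the modifiers is not reported here. The genes, the lists and the ratio tests were chosen with earlier results of these data known. In the replicate block of the population comparisons, and not in the main tests, the replicate number was read as a mouse. Files of both populations with the same number share a further number in their names. Same-numbered Poly-E and Ortho-E libraries deviated together in Ypel4+/+ (r over genes 0.257 to 0.410) and less so in Ypel4-/- (0.058 to 0.368). The highest r with another number was 0.155 to 0.286 in Ypel4+/+ and -0.139 to 0.181 in Ypel4-/-. For Ypel4-/- replicate 2 another number was closer (0.181) than its own (0.058).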

Additional observations from a re-analysis of the deposited data

Results flagged for a closer look

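Ube2r2 in Ypel4-/- Ortho-E replicate 2 was at 1471 CPM, apart from the other 3 libraries of its group at 1578 to 1599 CPM (the gap was 0.842 of the group's range, above the Dixon limit for 4 values). It was the only such value in 48 groups of values, and chance alone marks about 1 in 20 groups. All 4 libraries of the group lay above the Poly-E range of 164 to 228 CPM.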

How the results depend on the processing

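Over 18 alternatives for each population comparison, all reported genes among the 6 largest rises and 6 largest falls kept their direction and passed the threshold in both genotypes. Called E2 genes numbered 20 to 26 in Ypel4+/+ (21 as reported) and 19 to 27 in Ypel4-/- (22 as reported). The counts moved by more than 1.5 times under library totals without TMM, where lower genes numbered 19 in place of 11 in each genotype, because every fold change shifts down. With each library left out in turn, called genes numbered 20 to 22 in Ypel4+/+ (9 to 11 higher, 10 to 13 lower) and 21 to 22 in Ypel4-/- (10 to 11 higher, 10 to 11 lower). No E2 gene was called between genotypes or for the interaction under any alternative run. The interaction estimate of Ube2l6 changed sign when Ypel4-/- Ortho-E replicate 1, Ypel4+/+ Poly-E replicate 1, or Ypel4+/+ Ortho-E replicate 3 or 4 was left out, its values reaching from -0.068 to 0.231, and it was never called.

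With the replicate block, which pairs libraries of the same number, 24 E2 genes were called in Ypel4+/+ (11 higher, 13 lower), with Ube2e3, Ube2j2 and Ube2q1 added, and 22 in Ypel4-/-, where no call changed, and 0 in the genotype comparisons and the interaction. The block p-values in the population comparisons treat the spread as known, so the added calls are uncertain. Depth limits the genes under about 50 reads in all, Ube2d2b, Ube2d1 and Ube2e1.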
